A study of Rattus norvegicus with 24 samples.

Results

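Transcript levels of 6 genes that stop or drive the cell cycle were followed in the left ventricle of rats that had received particles or zinc in the lung. The genes were Cdkn1a, Sesn1, Gadd45a, Gadd45g, Ccnd1, and Mki67, and every probe set annotated to one of them alone was taken, which gave 9 of the 15866 probe sets tested, or 6 of 10411 genes with a single symbol. Cdkn1a was read by 2 probe sets (1388674_at and 1387391_at) and Ccnd1 by 3 (1371643_at, 1383075_at, and 1371150_at), whereas Sesn1 (1372248_at), Gadd45a (1368947_at), Gadd45g (1388792_at), and Mki67 (1374775_at) had 1 each. Male Wistar Kyoto rats, 12 to 14 weeks old at the start, received weekly intratracheal instillations under halothane and were killed 48 hr after the last one. RNA came from the left ventricle with its septum and was hybridized to Affymetrix Rat 230A arrays. There were 24 arrays, each of a different rat, in 6 groups of 4. Control rats received saline. The MSH group received Mount St. Helens ash, a particle without water-soluble zinc. PM-HD rats received the whole suspension of an oil combustion particle that carried 14.5 μg of soluble zinc and 3.0 μg of soluble nickel per mg. By the study methods PM-LD rats received the same particle at a lower dose, although their labels give 7.25 and 1.5 μg per mg. PM-L was the saline leachate of that particle, with the soluble metals but no solids. The last group received zinc sulfate alone, for which the label states 14.5 μg of zinc per mL, although a protocol in the labels gives another concentration. Saline, MSH, PM-HD, and zinc sulfate arrays belonged to rats with 8 weekly instillations, and for PM-LD and PM-L no source used here states how many weeks were given. As far as stated, the groups differed in what was instilled. Whether PM-LD and PM-L rats also differed from the others in duration, weekly dose, or age at death is not known. No genetic modification of the rats is stated.

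Cells stop dividing after damage largely through the transcription factor p53, which switches on Cdkn1a. Its product, p21, binds cyclin-dependent kinases and halts cells at the border of G1 and S phase. Sesn1 encodes sestrin 1, another p53 target, which restrains growth by damping mTORC1 signalling. Gadd45a and Gadd45g encode small stress sensors that act on p38 and JNK kinases and on the mitotic kinase CDK1. On the other side, Ccnd1 encodes cyclin D1, which activates CDK4 and CDK6 in response to growth signals, and Mki67 encodes Ki-67, a protein present in dividing cells and lost in resting ones. Cardiomyocytes of an adult heart rarely divide, so that dividing cells of this tissue are mostly of other types.

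The promoter windows of 3 members are shown because all 3 genes are known p53 targets. By the thresholds given below, Cdkn1a fell against saline, Sesn1 differed only between zinc sulfate and MSH, and Gadd45a differed in no main comparison. Windows were taken from RefSeq on assembly GRCr8, from 250 bases before to 50 bases after the annotated start, on the strand of the gene, and 5 of 6 members had one. Capitals mark matches to the p53 half-site consensus.
Cdkn1a, chr20:7150682-7150981, plus strand: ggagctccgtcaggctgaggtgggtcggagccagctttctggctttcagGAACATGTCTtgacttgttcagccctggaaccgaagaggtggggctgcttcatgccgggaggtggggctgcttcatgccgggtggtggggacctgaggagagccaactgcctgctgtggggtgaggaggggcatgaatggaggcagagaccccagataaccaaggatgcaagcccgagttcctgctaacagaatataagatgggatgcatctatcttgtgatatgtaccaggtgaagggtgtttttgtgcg
Sesn1, chr20:46948469-46948768, plus strand: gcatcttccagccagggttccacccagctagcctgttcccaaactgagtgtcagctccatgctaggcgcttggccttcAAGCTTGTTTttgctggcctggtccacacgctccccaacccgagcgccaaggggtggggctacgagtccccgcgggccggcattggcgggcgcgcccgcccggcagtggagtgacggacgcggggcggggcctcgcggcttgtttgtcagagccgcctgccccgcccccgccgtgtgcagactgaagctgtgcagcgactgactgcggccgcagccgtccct
Gadd45a, chr4:97486750-97487049, minus strand: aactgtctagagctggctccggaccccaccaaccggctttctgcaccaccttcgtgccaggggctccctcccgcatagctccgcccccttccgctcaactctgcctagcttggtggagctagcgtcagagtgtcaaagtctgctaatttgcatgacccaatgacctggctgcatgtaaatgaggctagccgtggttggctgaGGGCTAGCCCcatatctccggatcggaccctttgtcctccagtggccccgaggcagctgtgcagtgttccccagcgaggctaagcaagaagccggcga
Each of these windows held 1 match, which began at −201, −172, and −48 relative to the start for Cdkn1a, Sesn1, and Gadd45a. No match lay in the windows of Gadd45g and Mki67, so that 3 of 5 members had one, against 7.98% of 33469 promoter windows of that length. These 3 are the members named above as known p53 targets, so the share describes a chosen set and tests nothing. Whether the marked letters are the sites that p53 uses was not tested. A GC box (GGGCGG, either strand) occurred 7 times in the Mki67 window, 3 times for Sesn1, and 1 time for Gadd45a, and 33.1% of all windows held at least 1. The Gadd45g window alone held an E-box (CACGTG, 6.42% of windows), and no member window held a cyclic AMP response element (TGACGTCA, 1.83%) or an AP-1 site (TGANTCA, 7.33%). These matches are letters of the reference assembly and were not measured as binding.

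Signals are the deposited MAS5 intensities, and each fold change compares group means of quantile-normalized log2 signal, with the standard error of limma. A gene is said to have risen or fallen where it passed the thresholds that the study methods state, an unadjusted p under 0.05 together with a rise or a fall of over 25%. Beside these calls stands a two-sided exact permutation test of the same normalized values, 4 rats against 4, which cannot give a p below 0.0286. No member passed after Benjamini-Hochberg adjustment over all 15866 probe sets in limma: the lowest adjusted p of any member was 0.851 against saline and 0.502 between exposures. With 4 rats a group, the precision of all values is limited. All 5 comparisons with saline use the same 4 saline arrays, so that values of different exposures against saline are not independent of each other. In whole tissue, fewer cells of a type and less RNA per cell cannot be told apart. The 7 measured of 8 ventricular cardiomyocyte markers summed to between 116052 and 229083 per array, and the 4 atrial markers to between 2667 and 43218. Control probe sets read Gapdh near its 3′ and its 5′ end, and their signal ratio, which climbs as RNA degrades and can also move with labelling, ran from 1.11 to 5.62, with 9 arrays above 3. All samples met a minimum for ribosomal RNA quality by the study methods, and what set the ratio was not tested. The array titles carry running numbers, which are consecutive for 23 arrays. Saline replicate 1 has a later number with the ending -2, and whether it was hybridized apart from the others is not stated. It had the highest atrial marker mean of the saline arrays (12.5 log2 units, saline median 8.40), and it enters all comparisons with saline. Without it, 4 of 12 calls against saline were lost: MSH on Cdkn1a 1387391_at (−1.21), Ccnd1 1371643_at (0.33), and Ccnd1 1383075_at (0.76), and PM-LD on Cdkn1a 1387391_at (−1.59). Calls gained without it are given with each gene.

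Cdkn1a was lower in every exposed group than in saline by both of its probe sets, and by the first of them the difference was largest with zinc sulfate and PM-LD. On 1388674_at the saline rats had signals of 1196, 1325, 1569, and 1568. With zinc sulfate the rats had 809.5, 964, 782, and 1032, all below every saline rat, and with PM-LD 979, 741, 1159, and 846, again all below. Cdkn1a thus fell by 0.66 on the log2 scale with zinc sulfate (standard error 0.17, adjusted p = 0.851), to a fold of 0.633. With PM-LD it fell by 0.60 (standard error 0.23, adjusted p = 0.999), to a fold of 0.658. The exact permutation p was 0.0286 in both comparisons. The MSH rats had 929.5, 969.5, 1355, and 1051, the PM-HD rats 919, 1238, 1085, and 1270.3, and the PM-L rats 1047, 1200.3, 1442, and 581. These 3 groups overlapped with saline, and none passed: the log2 fold changes were −0.40 with MSH (exact permutation p = 0.0857), −0.35 with PM-HD (0.114), and −0.47 with PM-L (0.171). With MSH the fold of 0.756 alone kept the difference from a call. Single arrays decided these 3 calls. Ash passed without saline replicate 1 (−0.50) or 2 (−0.44) or without the third ash array (MSH replicate 3, −0.52), PM-HD without saline replicate 1 (−0.44), and PM-L without saline replicate 1 (−0.56) or PM-L replicate 2 (−0.54) or 3 (−0.66). The fall with zinc sulfate remained past the thresholds without any 1 of the 16 arrays in its fit, and that with PM-LD in 23 of 24, missing without PM-LD replicate 2 (−0.50).

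The dimmer probe set of Cdkn1a, 1387391_at, had saline signals of 291, 235, 405, and 369. Values were 20.8, 182, 141, and 131 with zinc sulfate, 105, 201, 225, and 9.2 with PM-LD, and 147.5, 133.5, 185, and 9 with PM-L. In these 3 groups each rat lay below each saline rat. With MSH the signals were 266, 73.6, 168, and 101, and with PM-HD 171, 291, 82.5, and 44.8, so that 1 rat of each group reached into the range of the saline signals. The probe set fell in every exposure, with log2 fold changes of −1.47 with zinc sulfate (standard error 0.55), −1.57 with PM-LD (0.72), −1.71 with PM-L (0.72), −1.32 with PM-HD (0.55), and −1.19 with MSH (0.55). The exact permutation p was 0.0857 with PM-HD and 0.0286 in the other 4 comparisons. Only 2 of its 24 signals were under 16, the PM-LD and PM-L rats at 9.2 and 9, and the calls leaned on single arrays. The call was lost with zinc sulfate without zinc sulfate replicate 1 (−0.94), with PM-L without saline replicate 3 (−1.60) or PM-L replicate 4 (−1.01), and with PM-LD without saline replicate 1, 3, or 4 or PM-LD replicate 1 or 4 (−1.60 to −0.86). It was lost with PM-HD without saline replicate 3 or 4 or PM-HD replicate 3 or 4 (−1.29 to −0.92), and with MSH it remained in 5 of 16 fits that leave out 1 array. Once the arrays above a Gapdh ratio of 3 were left out, the value was −0.42 with PM-HD, −0.99 with PM-L, and −1.39 with MSH, and none of these passed, whereas zinc sulfate (−1.54) and PM-LD (−1.85) did. With all 24 arrays in 1 fit the calls with MSH, PM-HD, and zinc sulfate were lost at unchanged values, and a pseudocount of 1 ended those with MSH (−1.30) and PM-LD (−1.92). The ratio as a covariate ended the call with MSH (−1.14). Over the 24 arrays the 2 probe sets of Cdkn1a had a Pearson r of 0.59, given as a description.

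**Figure D1:**
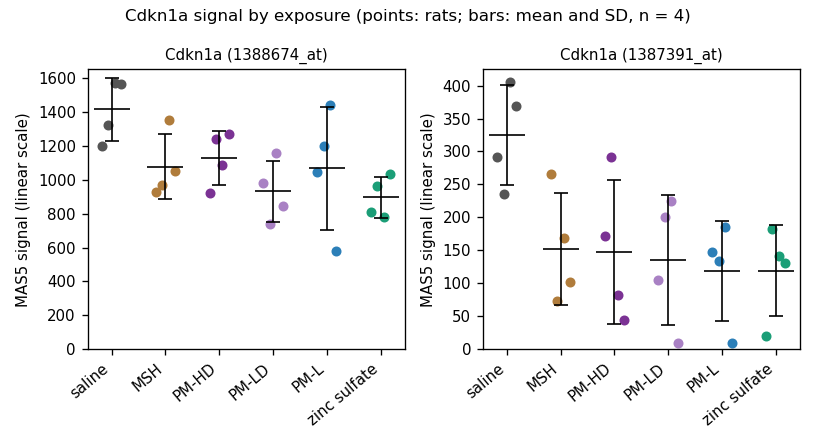
MAS5 signal (linear scale, from 0) of the 2 Cdkn1a probe sets in the 6 groups, 1 point per rat, with bars for the mean and SD of 4 rats. The saline mean is the highest in both panels (1415 and 325), and all zinc sulfate and PM-LD points lie below all saline points.

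Ordered by mean log2 level of 1388674_at, Cdkn1a ran from saline through PM-HD, MSH, PM-L, and PM-LD to zinc sulfate, and no neighbours in that order differed at an unadjusted limma p under 0.05 over 24 arrays. The mean signal was 1415 ± 185 in saline (SD, n = 4) and 897 ± 121 with zinc sulfate. With the groups in the model, the slope of Cdkn1a per log2 unit of the Gapdh ratio was 0.058 (standard error 0.090, adjusted p = 0.67), where 35.5% of all probe sets had a slope with adjusted p under 0.05. With the ratio as a covariate Cdkn1a still passed, at −0.66 with zinc sulfate and −0.59 with PM-LD.

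Sesn1 was higher with zinc sulfate than with ash. Its signals were 690.2, 798, 398, and 899.8 with zinc sulfate and 319.8, 348, 300.5, and 388.5 with MSH, so that every zinc sulfate rat lay above every MSH rat. The saline rats lay between and across both, at 573, 653, 362, and 270.2. Sesn1 was higher with zinc sulfate than with MSH by 1.00 on the log2 scale (standard error 0.33, adjusted p = 0.529), a fold of 2.00, and it remained past the thresholds without any 1 of the 16 arrays. After normalization the lowest zinc sulfate rat and the highest MSH rat both stood at 8.59 log2 units, the MSH rat marginally above, and the exact permutation p was 0.0571. Against saline Sesn1 did not pass with zinc sulfate (0.63, standard error 0.33, exact permutation p = 0.171) or MSH (−0.37, exact permutation p = 0.343). Leaving out saline replicate 1 (0.77) or 2 (0.84) or zinc sulfate replicate 3 (0.91) brought the call with zinc sulfate. The other groups overlapped widely with saline, with signals from 385 to 736.5 with PM-HD, 400 to 789 with PM-LD, and 375 to 865 with PM-L, and log2 fold changes of 0.16, 0.46, and 0.32.

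Within groups, Sesn1 had a slope on the Gapdh ratio of −0.52 per log2 unit (standard error 0.066, adjusted p = 2.7e-06). The median ratio was 1.50 with zinc sulfate and 2.76 with MSH, so the groups differed in it as well. With the ratio as a covariate the difference between zinc sulfate and MSH was 0.79, past the thresholds, and against saline Sesn1 then passed with zinc sulfate (0.56), PM-HD (0.35), and PM-L (0.35). Without the arrays above a ratio of 3, Sesn1 was 1.31 higher with zinc sulfate than with MSH and passed, over 3 zinc sulfate and 2 MSH rats, and against the 3 saline rats left it passed both with zinc sulfate (0.65) and with MSH (−0.66). Of all probe sets, 13.2% passed between zinc sulfate and MSH in that fit. By mean log2 level the order was zinc sulfate, PM-LD, PM-L, PM-HD, saline, and MSH, and no neighbours differed at an unadjusted p under 0.05.

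Gadd45a did not pass in any comparison with saline. Its saline rats ranged from 337 to 932, and the exposed rats from 238 to 1283. The PM-LD rats had 689.7, 1283, 362, and 1187, and the zinc sulfate rats 919.6, 1017, 260.4, and 1022, so that both groups spread widely, and 1 zinc sulfate array stood far below the other 3. Log2 fold changes were 0.35 with PM-LD and 0.22 with zinc sulfate, −0.21 with MSH, −0.37 with PM-HD, and −0.36 with PM-L, with standard errors of 0.47 to 0.53. Within groups the signal moved with the Gapdh ratio, at a slope of −0.92 per log2 unit (standard error 0.054, adjusted p = 2.4e-10). The lowest rats of zinc sulfate, PM-L, PM-LD, PM-HD, and saline were each the rat with the highest ratio of its group (5.57, 5.62, 4.64, 4.81, and 5.48). With the ratio as a covariate Gadd45a differed from saline by 0.0091 with MSH and by −0.30 with PM-L, short of the fold limit. Without the arrays above a ratio of 3 it was 0.41 higher with zinc sulfate than in saline (3 rats each) and 0.66 higher than with MSH (2 rats), both past the thresholds. In that fit 6.96% of all probe sets passed with zinc sulfate against saline and 13.2% against MSH. Leaving out zinc sulfate replicate 3 alone gave 0.93 against MSH, past the thresholds, where 14.5% of all probe sets passed.

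**Figure D2:**
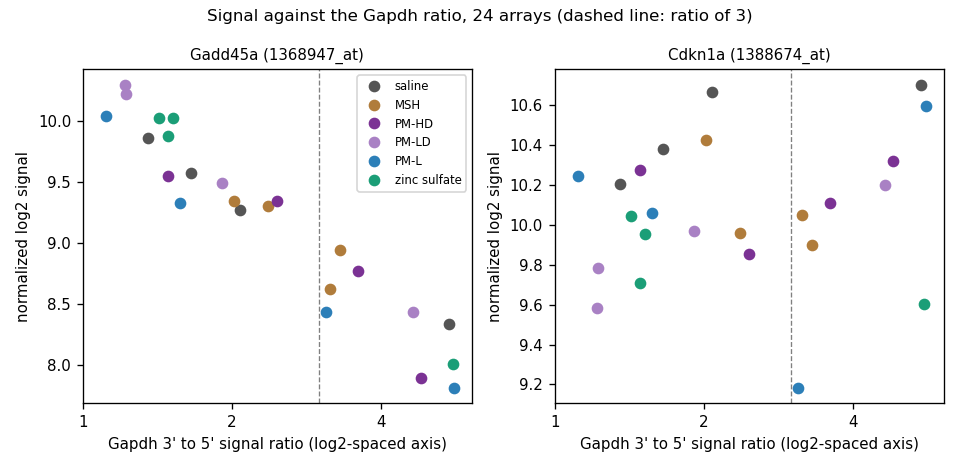
Normalized log2 signal of Gadd45a (left) and Cdkn1a 1388674_at (right) against the 3′ to 5′ Gapdh ratio (log2-spaced axis), 1 point per rat, 24 rats, with the dashed line at a ratio of 3. The Gadd45a points fall along the axis, with a slope of −0.92, whereas the Cdkn1a points show no such slope (0.058).

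Gadd45g was lower in all 5 exposed groups than in saline by its mean, but none passed. The saline rats had 394, 980.1, 622, and 409, and the zinc sulfate rats 203.8, 329, 493, and 249, so that the groups overlapped. In PM-HD they were 399.7, 463, 308, and 263. With MSH 3 rats lay between 462 and 511 and the fourth at 137. The log2 fold changes were −0.77 with zinc sulfate (standard error 0.41), −0.68 with PM-HD, −0.65 with MSH, −0.39 with PM-L, and −0.20 with PM-LD. The exact permutation p was 0.114, 0.143, 0.343, 0.371, and 0.629 in that order. Without MSH replicate 2 the gene passed with zinc sulfate (−0.77) and PM-HD (−0.68), and without saline replicate 4 with zinc sulfate (−0.94). Without the arrays above a Gapdh ratio of 3 it passed with zinc sulfate (−1.11) and MSH (−1.25). That MSH value rests on MSH replicates 2 and 3 alone, and replicate 2 is the low rat at 137. With only MSH replicate 2 left out, the MSH value was −0.21 and did not pass. Its own slope on the ratio was −0.036 (adjusted p = 0.89). No neighbours in the order saline, PM-LD, PM-L, MSH, PM-HD, and zinc sulfate differed at an unadjusted p under 0.05.

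**Figure D3:**
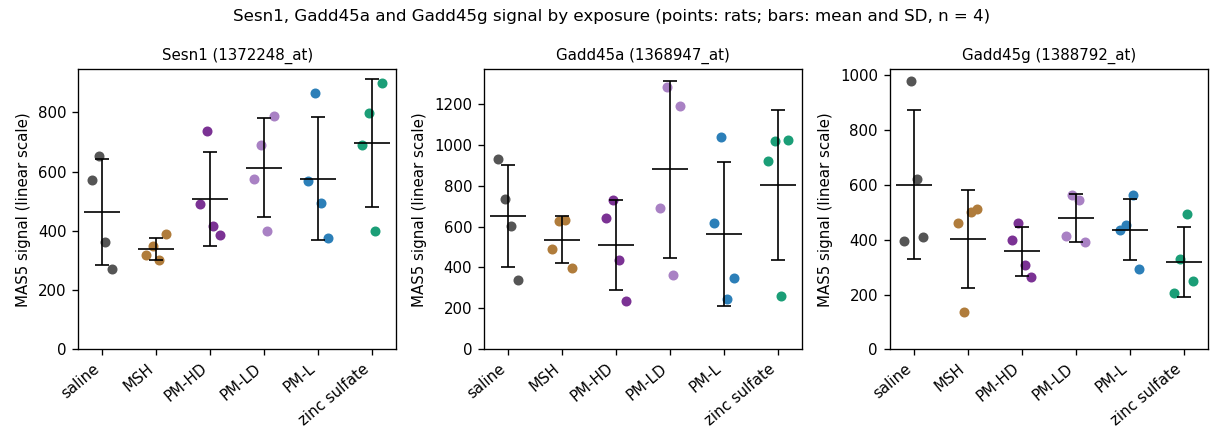
MAS5 signal (linear scale, from 0) of Sesn1, Gadd45a, and Gadd45g in the 6 groups, 1 point per rat, with bars for the mean and SD of 4 rats. The zinc sulfate rats lie above all MSH rats for Sesn1, and for Gadd45a the zinc sulfate rat at 260.4 stands apart from the other 3.

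Ccnd1 was highest with MSH by all 3 of its probe sets. On 1383075_at the MSH rats had 1642, 1038, 1237, and 1978, all above the saline rats, which had 888, 859.6, 917, and 786. Ccnd1 rose by 0.75 with MSH on this probe set (standard error 0.34, exact permutation p = 0.0286) and by 0.38 on 1371643_at (standard error 0.18, exact permutation p = 0.0571), there from a signal of 1302 ± 127 to 1662 ± 166 (SD, n = 4). The third probe set, 1371150_at, had a log2 fold change of 0.33 (exact permutation p = 0.171). These calls were narrow: that of 1383075_at was lost without any 1 saline rat or without MSH replicate 1 or 4 (0.60 to 0.78), and that of 1371643_at remained in 5 of 16 fits that leave out 1 array. The call of 1371643_at was also lost with a pseudocount of 1 (0.38), with median centring (0.28), and with all 24 arrays in 1 fit (0.38). Without the arrays above a Gapdh ratio of 3, the values of these 2 probe sets were 0.36 and 0.27 and neither passed.

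Ccnd1 was lower with zinc sulfate than with MSH on 2 of 3 probe sets. On 1383075_at they had 666, 428.5, 1233, and 483, and the highest of them overlapped with the MSH group. Against MSH, Ccnd1 differed with zinc sulfate by −1.09 on 1383075_at (standard error 0.34) and by −0.55 on 1371150_at (standard error 0.24) and passed on both. On 1371643_at the log2 fold change was −0.41, and the fold of 0.754 just missed a fall of 25%. The exact permutation p was 0.0571 for each of the 3 probe sets. The first of these calls held without any 1 of the 16 arrays. That of 1371150_at was lost without MSH replicate 1 or 3 or zinc sulfate replicate 1, 2, or 4 (−0.55 to −0.47), and 1371643_at passed without MSH replicate 2 (−0.48) or zinc sulfate replicate 1 (−0.43) or 3 (−0.49). Against saline the zinc sulfate values were −0.029, −0.34, and −0.22 for 1371643_at, 1383075_at, and 1371150_at, and none passed, while 1383075_at did so without the arrays above a ratio of 3 (−0.68).

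Within groups all 3 Ccnd1 probe sets climbed with the Gapdh ratio, with slopes of 0.25, 0.45, and 0.38 per log2 unit (adjusted p = 0.0054, 0.0019, and 2.6e-05). With the ratio as a covariate the MSH values were 0.33 and 0.64 on 1371643_at and 1383075_at, and both passed. The difference between zinc sulfate and MSH was then −0.92 on 1383075_at, which passed, and −0.41 on 1371150_at, short of the fold limit. Fibroblast markers, all 6 of 6 measured, summed to 15412 to 17800.2 with zinc sulfate, 17144 to 24419 with MSH, and 16378 to 21328 in saline. Endothelial markers, 4 of 6 measured, summed to 5083 to 15363 with zinc sulfate (median 5931), 8730 to 10670 with MSH (median 9620), and 6628 to 11185 in saline (median 7929). None of the markers of either list had a median signal under 16, and the part of these cell types in the Ccnd1 difference was not tested. The Ccnd1 signal of 1371643_at was 1084 to 1778 with PM-HD, 960.1 to 1266 with PM-LD, and 823 to 1908 with PM-L, and no Ccnd1 probe set passed against saline in these groups. Leaving out PM-HD replicate 2 (0.41) or PM-L replicate 2 (0.43) brought a call on 1371643_at in those groups. The 3 probe sets had pairwise Pearson r of 0.76, 0.65, and 0.69 over the 24 arrays.

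Mki67 rose with MSH, PM-L, and zinc sulfate and did not pass with PM-HD or PM-LD. The saline rats had low signals of 55.6, 58.7, 49.4, and 40.7. The MSH rats had 152, 95.6, 124, and 111.5, the PM-L rats 121, 68.9, 173, and 151, and the zinc sulfate rats 105, 87.6, 154, and 72.4, and each of these 12 rats lay above all saline rats. With PM-HD the signals were 35, 75.4, 52.4, and 27, on both sides of the saline values. Mki67 rose by 0.95 with MSH (standard error 0.25), by 0.91 with zinc sulfate (standard error 0.25), and by 1.00 with PM-L (standard error 0.37). Each of these calls held without any 1 array, and the exact permutation p of each was 0.0286. The adjusted p in limma was 0.9999 with MSH, 0.851 with zinc sulfate, and 0.933 with PM-L. With PM-HD the log2 fold change was −0.12 (exact permutation p = 0.8). The PM-LD rats were spread from 14.4 to 168, with 67.6 and 95.2 between, and gave 0.38 (exact permutation p = 0.571), which became 0.87 and passed without PM-LD replicate 4.

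The difference between exposures was tested directly. PM-HD rats had less Mki67 signal than MSH rats, with no overlap and a log2 difference of −1.06 (standard error 0.25, exact permutation p = 0.0286). They also had less than PM-L rats, at −1.12 (standard error 0.37, exact permutation p = 0.0571), where the highest PM-HD rat passed the lowest PM-L rat. Both held without any 1 array, while the adjusted p in limma was 0.9998 against MSH and 0.925 against PM-L. PM-HD and PM-L came from the same particle, with and without its solids, but the weeks of PM-L exposure are not stated. Mki67 had no slope on the Gapdh ratio that passed (0.064, adjusted p = 0.79). Without the arrays above a ratio of 3, which left 2 PM-L and 2 PM-HD rats, the PM-L values were 0.62 against saline and, for PM-HD against PM-L, −0.63, and neither passed, while MSH (0.73) and zinc sulfate (0.67) still passed. Ki-67 marks dividing cells of any type. The 6 measured of 7 myeloid leukocyte markers summed to 6855 to 8397 in saline, 7298 to 8589.9 with MSH, 7669 to 7796 with PM-HD, 7088 to 8273 with PM-L, and 6103 to 8005 with zinc sulfate, ranges that overlap, and their part in the Mki67 difference was not tested.

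**Figure D4:**
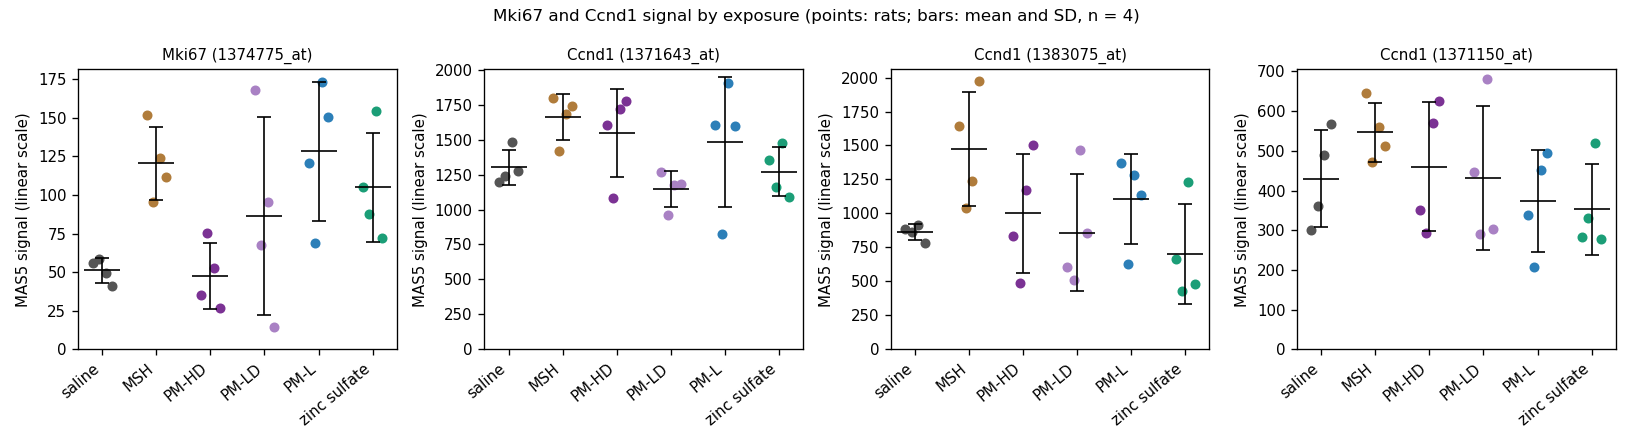
MAS5 signal (linear scale, from 0) of Mki67 and the 3 Ccnd1 probe sets in the 6 groups, 1 point per rat, with bars for the mean and SD of 4 rats. For Mki67 the MSH, PM-L, and zinc sulfate rats lie above all saline rats and the PM-HD rats do not, and the MSH mean is the highest for each Ccnd1 probe set.

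Set against all probe sets, the member counts were as follows. With zinc sulfate 2 of 9 member probe sets fell and 1 rose, where 2.05% of all probe sets fell and 2.41% rose; the same 2 lay wholly below saline (1.65% of all) and the same 1 wholly above (0.927%). With MSH 3 rose (1.83% of all) and 1 fell (1.75%), and 2 lay wholly above saline (2.14%). With PM-LD 2 fell (1.87%), both without overlap (1.07%). With PM-L 1 rose (2.43%) and 1 fell (1.82%), wholly above (1.24%) and wholly below (0.668%) saline. With PM-HD 1 fell (1.63%). Fractions of so few probe sets are coarse, and probe sets of one gene share its transcript. The members were chosen with earlier results of these data known, so these counts and those between exposures below test nothing about the set. The study had already reported Cdkn1a as decreased with MSH and PM-HD, and cyclin D1 as decreased with zinc.

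Between exposures, zinc sulfate against MSH gave 1 higher (3.66% of all) and 2 lower (2.99%) member probe sets, the higher one, Sesn1, without overlap (1.7%). PM-HD against MSH gave 1 lower (1.44%), Mki67, without overlap (1.45%). PM-HD against PM-L gave 1 lower (1.86%), again Mki67. No member passed between PM-HD and PM-LD (4.66% of all probe sets in either direction) or between zinc sulfate and PM-L (4.13%), and 0 of the 9 had an unadjusted p under 0.05 by limma in either comparison. Over the 6 groups at once, Mki67 was the member with an F test p under 0.05 (adjusted p = 0.896), where 5.01% of probe sets had one.

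**Figure D5:**
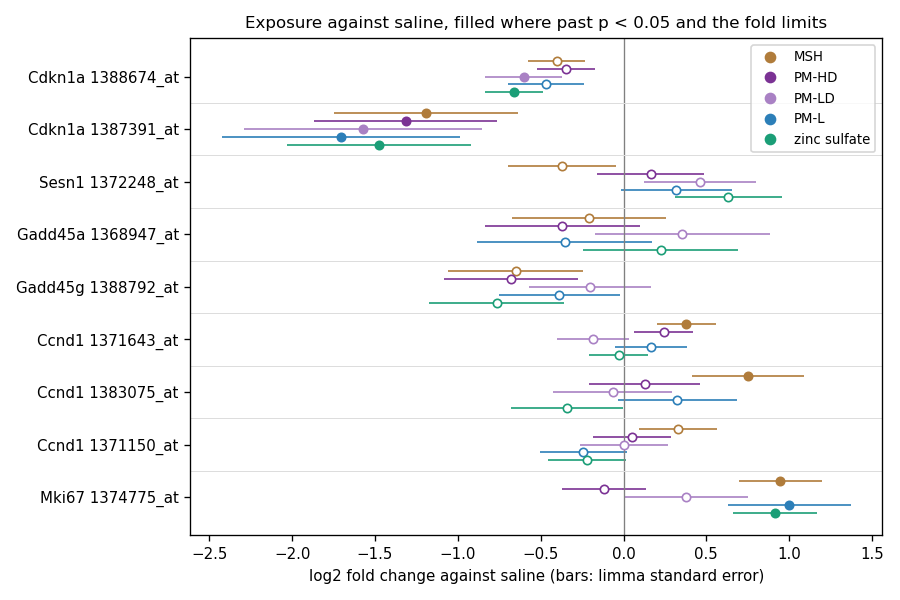
Log2 fold change against saline (x axis) of the 9 member probe sets for the 5 exposures, with bars for the limma standard error and filled points where the thresholds were passed. Both Cdkn1a probe sets lie left of 0 in every exposure, and Mki67 lies near 1 with MSH, PM-L, and zinc sulfate and at −0.12 with PM-HD.

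Other genes of the same pathways were counted from lists. Of 23 listed p53 targets and regulators 11 were measured, and with zinc sulfate 2 rose (2.41% of all probe sets did) and none fell, with a median of 0.27 against −0.0054 over all probe sets. These were Mdm2 (0.71, standard error 0.25), which marks p53 for destruction, and Fas (0.85, standard error 0.24), a death receptor whose signal was dim (39 ± 23.2 against 14.3 ± 3.58, SD, n = 4). Mdm2 also rose with PM-LD (0.80, where 2.24% of all probe sets rose), and no gene of the list passed with MSH, PM-HD, or PM-L. Of 18 measured among 23 listed CDK inhibitors and growth arrest genes, 2 fell with zinc sulfate, Klf4 (−0.92) and Btg3 (−0.53), against 2.05% of all probe sets. With PM-LD 1 fell, again Btg3 (−0.43), against 1.87%. Of 12 measured among 16 listed G1 cyclins and kinases, Cdc25a (−0.61) and E2f5 (−0.52) fell with PM-L, against 1.82% of all probe sets, and none passed in the other exposures.

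Among 30 measured of 42 listed S to M phase genes, none passed with zinc sulfate, where Mki67 rose. With MSH 1 rose, the mitotic kinesin Kif20a (1.05, against 1.83% of all probe sets), and with PM-L 1 fell, Birc5 (−0.94, against 1.82%), which encodes survivin. With PM-HD 2 rose, the topoisomerase Top2a (0.64) and the mitotic kinase Plk1 (1.01), and 1 fell, Ube2c (−0.57), against 2.04% of all probe sets higher and 1.63% lower. Top2a (0.60) and Kif20a (0.67, again dim at 31.7 ± 11.1) rose with PM-LD, against 2.24%. The medians of the list lay between 0.0096 and 0.14. Among 11 measured of 13 sestrin, AMPK, and mTORC1 genes, the AMPK subunit gene Prkab2 rose with zinc sulfate (0.85) and PM-LD (0.98), against 2.41% and 2.24% of all probe sets. None of 6 measured among 9 stress kinases passed in any exposure.

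The genes whose normalized signal ran most like each member over the 24 arrays were sought among bright genes, by Pearson r, as a description of arrays that share scaling and differ in the Gapdh ratio. For Gadd45a they were Pgm1 (0.98), Coq10a (0.97), and Eif3j (0.97), and for Sesn1 Itga7 (0.91), Ppm1a (0.91), and Maf1 (0.90). Ccnd1 ran with Aarsd1 (0.86), Zfp384 (0.84), and Nid1 (0.84), and Gadd45g with Klf2 (0.75), Zfp36 (0.75), and Errfi1 (0.71). Weaker likenesses were found for Cdkn1a, with Adcy6 (0.69), Kat14 (0.65), and A1cf (0.60), and for Mki67, with Ttc23 (0.66), Paf1 (0.65), and Tmem263 (0.64). The members with the strongest likenesses, Gadd45a, Sesn1, and Ccnd1, were those with a slope on the Gapdh ratio.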

How the data were processed

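RNA of 24 rat hearts, 4 rats in each of 6 groups, was measured on Affymetrix Rat 230A arrays. The deposited values are linear signal intensities that the authors computed in Microarray Suite 5.0 (MAS5), with every array scaled to a common trimmed mean. Robust multiarray averages, on which the study ran its own tests, were not used here. Groups came from the labels, and the replicates are separate rats. After 57 control probe sets were left out, 15866 of 15923 were tested: 16 was added to each signal, log2 was taken, and the 24 arrays were quantile normalized. In limma 3.58.1 (R 4.3.3), group means were fitted to the 16 saline, MSH, PM-HD, and zinc sulfate arrays or, where PM-LD or PM-L was compared, to 24. Benjamini-Hochberg adjustment ran over all probe sets. Differences of member means were also tested by exact permutation of the 8 rats compared (two-sided). The steps were checked on simulated data.

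Genes were named from the platform annotation, where 12783 probe sets carry 1 symbol, 312 several, and 2771 none. Named genes were all member probe sets, up to 4 genes of each pathway list that passed with the lowest p (brightest probe set per gene), and the 3 bright genes most like each member. The members and lists were chosen with earlier results of these data known. Slopes on the Gapdh ratio were fitted after values had been seen. Alternatives were a pseudocount of 1 or 64, median centring, a filter on dim probe sets, a robust trended prior, the mean over the probe sets of a gene, the replicate number as a block, the Gapdh ratio or atrial mean as a covariate, leaving out arrays with a ratio above 3, other sets of arrays in the fit, other fold limits, and leaving out each array. Replicate numbers were not treated as pairs in the main fits. Deviations from group means had a median r of 0.056 over 60 same-number pairs (−0.26 to 0.52, 22 above 0.1). Over 180 pairs of different number the median was −0.022. Whether arrays of one number were handled together is not stated. Figures were drawn with matplotlib 3.10.9.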

Additional observations from a re-analysis of the deposited data

Results flagged for a closer look

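In 3 of 54 sets of 4 rats (9 probe sets in 6 groups), 1 rat stood so far from the others that the gap to the nearest exceeded the 95% limit of Dixon's test, where chance gives about 1 in 20. The Cdkn1a probe set 1387391_at read 9 in PM-L replicate 4, against 133.5 to 185 in the other 3. Gadd45a read 260.4 in zinc sulfate replicate 3, against 919.6 to 1022 in the others. Gadd45g read 136.9 in MSH replicate 2, against 462 to 511 in the others.

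In 5 cases the effects of 2 exposures differed by a direct test between them. Sesn1 was higher with zinc sulfate than with MSH by 1.00 on the log2 scale. Ccnd1 differed between the same groups by −1.09 (1383075_at) and −0.55 (1371150_at). Mki67 differed by −1.06 between PM-HD and MSH and by −1.12 between PM-HD and PM-L. In limma the adjusted p was 0.529 for Sesn1 and 0.502 and 0.645 for the Ccnd1 probe sets in the order given. For Mki67 it was 0.9998 against MSH and 0.925 against PM-L.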

How the results depend on the processing

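The number of member probe sets past the thresholds moved as follows. Leaving out each array in turn gave 1 to 4 with MSH (4 as reported), 0 to 2 with PM-HD (1), 2 to 4 with zinc sulfate (3), 1 to 2 with PM-LD (2), 1 to 4 with PM-L (2), 2 to 5 for zinc sulfate against MSH (3), 1 to 2 for PM-HD against MSH (1), 0 to 1 for PM-HD against PM-LD (0), 0 to 2 for zinc sulfate against PM-L (0), and 1 to 3 for the F test (1). Over all probe sets, these fits passed 3.45% to 4.2% with MSH, 3.33% to 5.46% with PM-HD, and 3.65% to 8.29% with zinc sulfate. They passed 3.37% to 5.88% with PM-LD and 3.78% to 5.69% with PM-L. The shares were 4.94% to 14.5% for zinc sulfate against MSH and 2.87% to 3.9% for PM-HD against MSH. They were 3.55% to 9.92% for PM-HD against PM-LD, 3.15% to 6.45% for zinc sulfate against PM-L, and 4.3% to 5.91% for the F test. A filter on dim probe sets removed Mki67 and the dimmer Cdkn1a probe set. It left 2 with MSH (2.14% of all probe sets kept), 0 with PM-HD (2.07%), and 1 with zinc sulfate (2.79%). It left 1 with PM-LD (2.72%), 1 with PM-L (2.84%), 0 for PM-HD against MSH (1.45%) and against PM-L (2.72%), and 0 for the F test (4.32%). Without the arrays above a Gapdh ratio of 3, the counts were 7 with zinc sulfate (6.96% of all probe sets passed there), 0 with PM-HD (4.49%), and 0 with PM-L (4.89%). They were 4 for PM-HD against MSH (5.98%, and 3.15% as reported), 0 for PM-HD against PM-L (5.12%), and 1 for zinc sulfate against PM-L (4.22%). For zinc sulfate against MSH the count was 4 (13.2%, and 6.66% as reported). The ratio as a covariate gave 2 with PM-HD (4.97%), 3 for PM-HD against MSH (4.29%), 2 for zinc sulfate against PM-L (5.28%), and 4 for the F test (7.94%). The atrial mean gave 1 for zinc sulfate against PM-L (4.98%) and 3 for the F test (5.21%). All 24 arrays in 1 fit gave 2 with MSH (3.18%) and 0 with PM-HD (3.22%), and a pseudocount of 1 gave 2 with MSH (3.57%) and 1 with PM-LD (4.2%). Averaging the probe sets of each gene gave 1 with PM-LD (3.92% of all genes), and only the 2 groups compared gave 2 for PM-HD against MSH (3.7%). With a replicate block the counts were 1 for PM-HD against PM-LD (5.84%), 1 for zinc sulfate against PM-L (4.66%), and 4 for the F test (5.86%). They were 3 with MSH (3.65%) and 4 with zinc sulfate (4.54%). The replicate numbers share no stated batch, and 11 of 24 arrays correlated best with their own number. Of the pairs of arrays from different groups, 60 shared a number and 180 did not. The cause of the moves in the counts was not tested.

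Over all alternatives, results past the thresholds stayed past them in 471 recomputed values and fell short in 64, and none changed sign. Part of this tally was fixed beforehand. Leaving out an array of a group not compared, or changing the prior, cannot move a fold change or its sign. The other fold limits cannot end a call. The tally is therefore no measure of how robust the calls are. Results short of the thresholds stayed short with the same sign in 1171, passed in 48, and changed sign in 45. Ccnd1 did so with the ratio as a covariate (−0.024 and −0.069 with PM-HD, 0.042 with PM-LD), without the arrays above 3 (−0.44 and −0.22 with PM-HD, −0.082 with PM-LD, −0.17 with PM-L), with median centring (0.053 with zinc sulfate), with probe sets averaged (−0.081 with PM-LD, 0.083 with PM-L), and with the atrial mean (0.0030 with PM-LD). Gadd45a did so with MSH (0.0091, ratio as a covariate) and PM-L (0.12, without the arrays above 3), Gadd45g for zinc sulfate against MSH (0.13, without the arrays above 3), and Mki67 for the same groups (0.027, atrial mean). Leaving out 1 array at a time, these results ranged across 0. Ccnd1 ranged from −0.092 to 0.20 with PM-HD on 1371150_at, from −0.10 to 0.42 with PM-HD on 1383075_at, from −0.11 to 0.042 with zinc sulfate on 1371643_at, from −0.20 to 0.13 with PM-LD on 1371150_at, from −0.36 to 0.13 with PM-LD on 1383075_at, from −0.0057 to 0.43 with PM-L on 1371643_at. Sesn1 ranged from −0.10 to 0.37 with PM-HD. Mki67 ranged from −0.36 to 0.073 with PM-HD, from −0.14 to 0.073 with zinc sulfate against MSH. Gadd45a ranged from −0.083 to 0.72 with zinc sulfate, from −0.74 to 0.011 with PM-L. Gadd45g ranged from −0.38 to 0.070 with PM-LD, from −0.56 to 0.052 with zinc sulfate against MSH. Cdkn1a ranged from −0.57 to 0.25 with zinc sulfate against MSH.

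Each group had 4 rats, so that a difference smaller than the spread between rats was not detectable, and under adjustment no member passed. Signals under 16 made up 4.70% to 10.6% of an array, which touches Mki67 and the Cdkn1a probe set 1387391_at. Hybridization batches were not given in the sources used here; saline replicate 1, whose title number stands apart, is among the arrays left out in turn.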
